A study of Mus musculus with 14 samples.

Results

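The 49 genes described here encode the machinery that charges tRNAs with amino acids and starts translation: 20 cytosolic aminoacyl-tRNA synthetases and 29 initiation factors, among which are counted the eIF4E-binding proteins Eif4ebp1 and Eif4ebp2. They were taken by name, as listed genes of these families, and all 49 were found among the 24411 genes of the count files. All 49 also passed the filter on low counts, which left 9644 genes for testing. By role the factors comprised 2 genes of the eIF1 family, 2 eIF2 subunits, 5 eIF2B subunits, 9 eIF3 subunits, 6 genes of the eIF4 family, 2 eIF4E-binding proteins and 3 genes of the eIF5 and eIF6 families.

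RNA was sequenced from livers of male littermate mice aged 5 to 7 months, all of which carried floxed alleles of Rbbp5, a shared subunit of the histone H3 lysine 4 methyltransferase complexes. WT mice were Rbbp5 (flox/flox); Alb-CRE (-/-), and LKO mice (RRBP5 LKO in the sample labels, RBBP5 LKO in the design text) were Rbbp5 (flox/flox); Alb-CRE (+/-). The albumin promoter drives Cre in hepatocytes, and whether the other cells of an LKO liver kept the gene was not tested here. Mice of each genotype were given tunicamycin by intraperitoneal injection at 0.05 mg/kg in 500 µl of 3% DMSO in PBS, or that vehicle alone, and livers were collected 8 h later. WT mice gave 3 libraries with vehicle and 3 with tunicamycin, and LKO mice gave 4 of each. The labels do not state that each library came from its own animal, so p-values measure the spread between these samples.

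Synthetases join each amino acid to its tRNA, and initiation factors bring the charged initiator tRNA, the mRNA and the ribosome together. eIF2 delivers the initiator tRNA, eIF2B recharges eIF2 with GTP, eIF3 holds the small ribosomal subunit, and the eIF4 factors bind and unwind the capped 5′ end. Tunicamycin blocks N-linked glycosylation and so burdens the endoplasmic reticulum (ER). In the stress response that follows, the kinase PERK phosphorylates the alpha subunit of eIF2, which turns eIF2 into an inhibitor of eIF2B and slows initiation. The transcription factor ATF4 is translated under those conditions and is known to activate many synthetase genes and Eif4ebp1 through C/EBP-ATF elements.

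Promoters were therefore searched for the core of that element, TGATGNAA, on both strands of the 300 bases from 250 before to 50 after each gene's start, in the RefSeq table for build GRCm38.p6. Of the members, 34 had a promoter in the table, 13 of them synthetases and 21 factors. The core was found in 5 of 13 synthetase promoters (38.5%), namely those of Aars, Gars, Iars, Tars and Yars, and in 0 of 21 factor promoters. Among all 27025 genes in the table, counted in the same way, 4.51% held it, and 3.97% of the 32851 single promoters did. The windows of 30 bases below are given 5′ to 3′ on the strand of the gene, with the match in capitals. They are shown because these synthetases include those with the smallest p-values after tunicamycin.
Yars, chr4:129189895-129189924, + strand: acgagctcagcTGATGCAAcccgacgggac
Gars, chr6:55037960-55037989, + strand: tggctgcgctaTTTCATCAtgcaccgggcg
Aars, chr8:111033840-111033869, + strand: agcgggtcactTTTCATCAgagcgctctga
Iars, chr13:49682126-49682155, + strand: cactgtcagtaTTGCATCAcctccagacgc
Tars, chr15:11399655-11399684, - strand: caggagtcccgTTGCATCAgctggttagct
Capitals in the Yars window read in the direction of the gene, and those in the other windows are the reverse complement of the core. Those printed for Yars, Iars and Aars, the gene of alanyl-tRNA synthetase, lie after the annotated start. The same search found the core in 8 of 23 promoters of a list of integrated stress response genes (34.8%), in 0 of 14 promoters of mitochondrial synthetases and in 0 of 10 promoters of ER chaperones. The ER stress element is CCAAT and CCACG with 9 bases between them, bound by ATF6 together with NF-Y. It was in 0 member promoters, in 6 of 10 ER chaperone promoters and in 0.137% of all genes in the table. The E-box CACGTG was in 4 of 13 synthetase promoters (Aars, Farsb, Iars and Tars), in 5 of 21 factor promoters (Eif3a, Eif3f, Eif4a1, Eif4e and Eif4g1) and in 7.15% of all. A match describes these letters and is not evidence of binding.

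Reads on the gene's strand numbered 6507018 to 13519421 per library, of which the ribosomal RNA gene Rn45s took 72.5 to 75.5%, which left 1704479 to 3551398 on other genes. Members took 7725 to 16094 reads per library, or 0.408 to 0.541% of the reads without Rn45s. Reads of LKO vehicle libraries 3 and 4 differed by about the sampling noise (chi-square per degree of freedom 1.12, against at least 3.38 in the other pairs within groups), so they were summed and counted as 1 sample, here called LKO vehicle 3, which left 13 samples. Rbbp5 itself was at 4.07 to 6.41 CPM (counts scaled to a common library size) in the 6 WT samples and at 1.90 to 4.15 CPM in the 7 LKO samples, with LKO vehicle 1 alone inside the WT range. WT tunicamycin 3 stood apart from samples 1 and 2 of its group, with 25.9 and 25.8 by the same measure against 6.23 between those. In bulk tissue, fewer cells of a type and less RNA per cell cannot be told apart. Summed hepatocyte markers stood at 13535 to 23619 CPM in all groups. Of the 8, Ass1 did not pass the filter on low counts over the 13 samples, so its 0 in every LKO tunicamycin sample was not tested as a difference. The 5 lymphocyte markers summed to at most 0.948 CPM in any sample. Of the 3 erythroid markers, Hba-a1 and Hbb-bs were at 0 in all, while Alas2 stood at 10.9 to 25.1 CPM.

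Levels per transcript length were compared with the deposited FPKM (fragments scaled by transcript length and depth), since counts cannot be compared between genes. In WT vehicle, the most abundant members were Eif1, which guards start codon selection, at 12.7 ± 0.997 FPKM (SD, n = 3), Eif4g1, the scaffold of the cap-binding complex, at 11.1 ± 0.35, and Eif5, the activator of the GTPase of eIF2, at 10.7 ± 0.51. Aars led the synthetases at 4.28 ± 0.36 FPKM, rank 14 of the 49, followed by Eprs, the joint glutamyl- and prolyl-tRNA synthetase, at 4.24 ± 0.36 and Tars, threonyl-tRNA synthetase, at 4.05 ± 0.62. These 3 synthetases did not differ beyond their SDs, nor did Eif4g1 and Eif5. At the low end lay Eif2b2, the beta subunit of eIF2B, at 0.25 ± 0.10 FPKM and Eif2b3, its gamma subunit, at 0.30 ± 0.08, then Cars, cysteinyl-tRNA synthetase, at 0.37 ± 0.02 and Farsa, the alpha subunit of phenylalanyl-tRNA synthetase, at 0.39 ± 0.10. Eif2b2 had only 2 to 25 reads per sample.

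**Figure D1:**
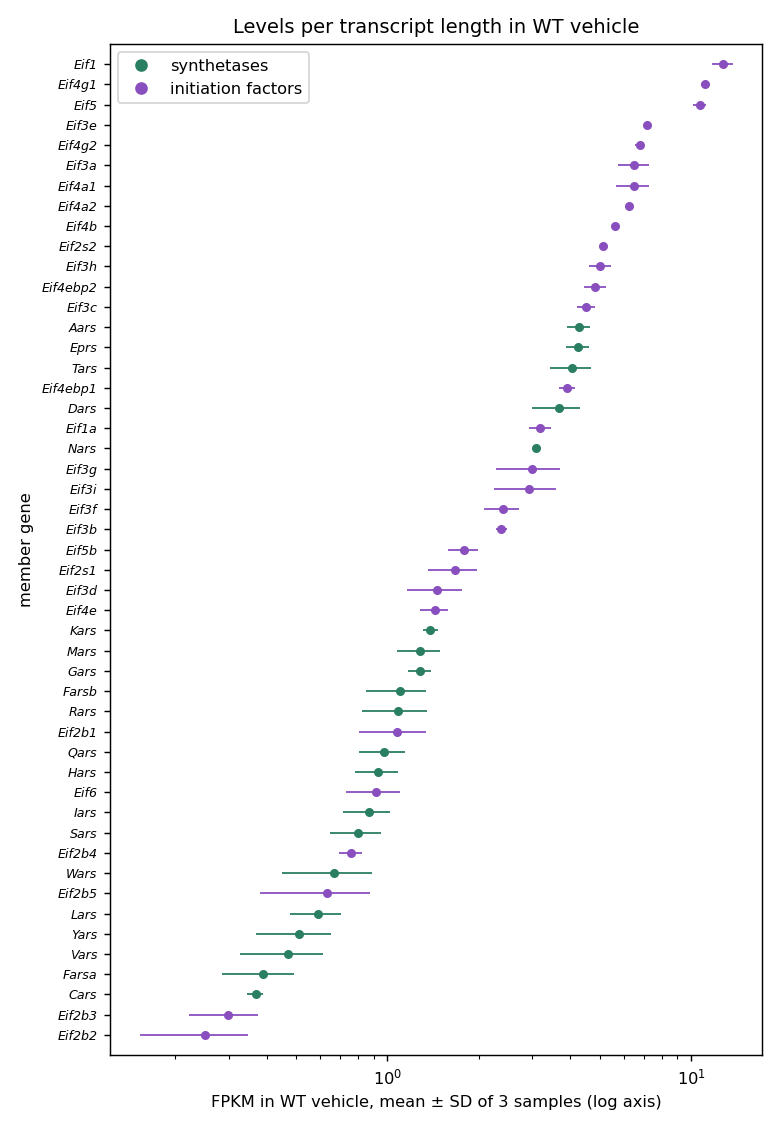
Mean FPKM in WT vehicle (log axis) for each member, with bars for the SD of 3 samples, synthetases in green and initiation factors in purple. Eif1, Eif4g1 and Eif5 are at the top, Aars is the highest synthetase at 4.28 FPKM, and Eif2b2 is the lowest member.

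The plot of CPM by sample compares the members within genes across groups. Over 13 samples the typical variation within a group was a coefficient of 0.116 for the median synthetase and 0.115 for the median factor, against 0.124 for the median of all genes tested. Effects are given as log2 fold changes from edgeR's quasi-likelihood test with TMM scaling, ± their standard error, with Benjamini-Hochberg adjustment over all 9644 genes. Members with an adjusted p under 0.05 numbered 0 in each of the 5 contrasts, and those with an unadjusted p under 0.05 numbered 12, 6, 2, 16 and 2 in the order given below. DESeq2 gave an adjusted p for 39, 16, 49, 49 and 49 members in that order, so the other members could not be called. It called 1 member, Aars, in 2 of the contrasts, where it called 153 and 130 of 16249 genes, and 0 in the other 3. Limma on FPKM called 0 members in all.

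Tunicamycin was first compared with vehicle in WT liver, to show how the machinery of translation responds when Rbbp5 is intact. Of the 20 synthetases, 17 were higher after tunicamycin, with a median log2 fold change of 0.23, and of the 29 factors 19 were higher, with a median of 0.11, against a median of 0.01 over all genes tested. Single fold changes ran from -0.11 to 0.90 among synthetases and from -0.29 to 0.81 among factors. The factor median was 0.03 without WT vehicle 1, 0.05 without WT tunicamycin 3 and 0.06 without WT vehicle 3. Passing the adjusted test were 0 members, where 0.363% of all genes did. At an unadjusted p under 0.05 there were 12 members, 8 synthetases and 4 factors, all higher, and 6 without WT vehicle 3 or without WT tunicamycin 1. At that level 7.93% of all genes were higher, 6.85% lower and 14.8% either. Values of 9 members lay entirely above those of vehicle (Aars, Iars, Nars, Wars, Yars, Eif1a, Eif2b4, Eif3d and Eif4ebp1) and those of 0 entirely below, where 8.63% of all genes were separated upward and 8.65% downward. Leaving out single samples raised these counts: to 16 higher and 3 lower without WT vehicle 1 (all genes 13.1 and 12.8%), to 18 and 1 without WT tunicamycin 2 (14.3 and 13.1%), and to 12 and 8 without WT tunicamycin 3 (18.6 and 19.2%). Without WT tunicamycin 3, edgeR called 2 members, Aars at 0.64 (adjusted p = 0.00886) and Eif4b at -0.55 (adjusted p = 0.0246). That fit called 615 of 9941 genes, against 35 of 9644 in the fit of all samples.

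Yars encodes tyrosyl-tRNA synthetase (chromosome 4, 129189795 to 129219607, mm10) and had the smallest p of the members. For Yars the samples gave 4.07, 4.74 and 3.06 CPM with vehicle and 7.02, 6.65 and 6.79 after tunicamycin in WT, and 4.27, 3.50 and 3.68 and then 4.80, 4.29, 5.91 and 3.69 in LKO. All WT tunicamycin values exceeded all WT vehicle values, and the log2 fold change was 0.77 ± 0.20 (edgeR, adjusted p = 0.0966).

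Aars is the most abundant synthetase (chromosome 8, 111033842 to 111055569, mm10). Aars stood at 39.2, 45.9 and 43.3 CPM in the WT vehicle samples and 69.5, 63.9 and 50.2 in WT tunicamycin, with 41.1, 49.6 and 40.8 in LKO vehicle and 46.8, 45.3, 37.9 and 40.7 in LKO tunicamycin. The 3 WT tunicamycin samples stood above every other sample, with a log2 fold change over WT vehicle of 0.52 ± 0.14 (edgeR, unadjusted p = 0.0018, adjusted p = 0.104). DESeq2, run as an alternative, gave 0.51 with an adjusted p of 0.0379, and Aars was the 1 member it called in this contrast.

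Wars encodes tryptophanyl-tRNA synthetase (chromosome 12, 108860030 to 108894174, mm10), which is also known as an interferon-induced gene. Wars was at 4.43, 2.82 and 3.21 CPM in WT vehicle, 8.67, 4.86 and 6.02 in WT tunicamycin, 2.37, 2.85 and 3.44 in LKO vehicle and 5.33, 3.90, 4.48 and 3.47 in LKO tunicamycin. Its WT groups did not overlap and differed by 0.90 ± 0.25 (edgeR, adjusted p = 0.111).

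Iars encodes isoleucyl-tRNA synthetase (chromosome 13, 49682130 to 49734267, mm10). For Iars the samples gave 13.9, 12.8 and 11.7 CPM with vehicle and 16.8, 16.5 and 19.1 after tunicamycin in WT, and 15.2, 12.3 and 14.3 and then 14.3, 14.3, 15.6 and 14.3 in LKO. WT tunicamycin samples were above all other samples, with 0.45 ± 0.13 over WT vehicle (edgeR, adjusted p = 0.114). Lars, leucyl-tRNA synthetase, differed by 0.51 ± 0.21 (edgeR, adjusted p = 0.257), with overlapping groups.

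Among the 13 synthetases with a promoter in the table, the 5 with the C/EBP-ATF core had log2 fold changes of 0.10 to 0.77 (median 0.45) and the 8 without it had -0.11 to 0.26 (median 0.06). The 7 synthetases without an entry had a median of 0.27, and Wars belongs to them. For tunicamycin in LKO the same split gave medians of 0.20 with the core and -0.04 without it. For LKO against WT the medians were 0.01 and -0.10 with vehicle, and -0.26 and -0.24 after tunicamycin. For the tunicamycin effect in LKO minus that in WT they were -0.37 and -0.16. These are descriptions of small sets, with no test.

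The initiation factors had smaller fold changes as a set, and the largest differences lay in single members of different complexes. Eif1a, which helps the small subunit scan for the start codon (chromosome 18, 46597704 to 46610225, mm10), differed by 0.52 ± 0.15 (edgeR, adjusted p = 0.124). Eif1a stood at 17.1, 19.3 and 16.0 CPM in the WT vehicle samples and 28.5, 19.9 and 27.0 in WT tunicamycin, with 13.98, 12.1 and 14.8 in LKO vehicle and 18.3, 22.3, 21.0 and 17.0 in LKO tunicamycin. WT tunicamycin values exceeded all WT vehicle values, though tunicamycin 2 only narrowly. Eif1a has a near-identical relative on the X chromosome, Eif1ax, and unique mapping can split reads between them, so its level is uncertain.

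Subunits of eIF2B, the exchange factor that phosphorylated eIF2 inhibits, differed among themselves. Eif2b4 was at 3.59, 5.38 and 4.66 CPM in WT vehicle, 7.02, 6.49 and 5.56 in WT tunicamycin, 3.20, 4.16 and 4.21 in LKO vehicle and 5.33, 4.29, 3.16 and 4.13 in LKO tunicamycin. Eif2b4, the delta subunit (chromosome 5, 31187558 to 31193139, mm10), was 0.49 ± 0.21 higher in WT tunicamycin (edgeR, adjusted p = 0.295), and its WT groups were separate. For Eif2b1 the samples gave 5.87, 4.48 and 3.64 CPM with vehicle and 3.99, 5.51 and 5.87 after tunicamycin in WT, and 3.44, 4.09 and 4.69 and then 4.26, 3.51, 4.99 and 5.97 in LKO. This alpha subunit differed by 0.11 ± 0.24, with overlapping groups. Eif2b5 stood at 4.31, 6.41 and 3.64 CPM in the WT vehicle samples and 5.09, 6.16 and 6.48 in WT tunicamycin, with 3.79, 5.33 and 4.98 in LKO vehicle and 4.13, 4.94, 4.48 and 4.56 in LKO tunicamycin. The catalytic epsilon subunit Eif2b5 differed by 0.29 ± 0.21. Eif2b3 was at 0.96, 2.18 and 1.89 CPM in WT vehicle, 2.20, 1.62 and 1.54 in WT tunicamycin, 1.66, 2.41 and 1.90 in LKO vehicle and 1.73, 1.95, 1.53 and 2.28 in LKO tunicamycin. For Eif2b2 the samples gave 1.20, 1.03 and 0.44 CPM with vehicle and 1.79, 1.13 and 1.85 after tunicamycin in WT, and 1.30, 1.83 and 0.95 and then 0.27, 1.17, 1.63 and 0.98 in LKO. Both are low in reads, with overlapping WT groups. Eif2b2 had the highest fold change of the factors, 0.81 ± 0.50 (edgeR, adjusted p = 0.481), and its WT groups shared only WT vehicle 1 and WT tunicamycin 2 in the overlap.

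The eIF2 subunits had small fold changes. Eif2s1 stood at 12.9, 11.02 and 15.3 CPM in the WT vehicle samples and 15.3, 15.1 and 15.9 in WT tunicamycin, with 10.5, 11.8 and 9.55 in LKO vehicle and 10.1, 13.5, 15.0 and 11.1 in LKO tunicamycin. Eif2s1 encodes the alpha subunit that PERK phosphorylates, and its log2 fold change was 0.24 ± 0.16. Eif2s2 was at 25.4, 27.7 and 25.8 CPM in WT vehicle, 30.0, 25.6 and 31.2 in WT tunicamycin, 23.6, 22.6 and 23.6 in LKO vehicle and 24.0, 22.8, 25.6 and 22.3 in LKO tunicamycin. Eif2s2, the beta subunit, had 0.14 ± 0.11, and the WT groups overlapped for both.

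Eif4ebp1 encodes 4E-BP1, which holds eIF4E away from the cap and is a known target of ATF4 (chromosome 8, 27260327 to 27275656, mm10). For Eif4ebp1 the samples gave 5.63, 6.15 and 6.71 CPM with vehicle and 10.3, 7.13 and 7.56 after tunicamycin in WT, and 5.81, 6.72 and 6.65 and then 5.86, 8.72, 9.68 and 7.71 in LKO. WT tunicamycin stood above WT vehicle in all samples, by 0.45 ± 0.20 (edgeR, adjusted p = 0.296), while the LKO groups overlapped.

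Members with the lowest fold changes were factors. Eif4b stood at 54.4, 51.9 and 55.0 CPM in the WT vehicle samples and 34.1, 39.2 and 58.5 in WT tunicamycin, with 60.3, 45.8 and 56.1 in LKO vehicle and 39.0, 40.2, 42.5 and 46.9 in LKO tunicamycin. Eif4b, which stimulates the eIF4A helicase, differed by -0.29 ± 0.17 (edgeR, adjusted p = 0.442). Eif4a2 was at 36.5, 37.9 and 38.0 CPM in WT vehicle, 28.6, 29.3 and 37.4 in WT tunicamycin, 32.8, 26.9 and 33.9 in LKO vehicle and 21.7, 26.2, 28.0 and 27.3 in LKO tunicamycin. Eif4a2, a form of that helicase, differed by -0.24 ± 0.14 (edgeR, adjusted p = 0.436). For Eif3i the samples gave 10.5, 9.61 and 9.04 CPM with vehicle and 8.26, 6.16 and 9.72 after tunicamycin in WT, and 8.18, 6.86 and 7.54 and then 7.06, 8.07, 8.25 and 8.69 in LKO. For Eif3i, a subunit of eIF3, the difference was -0.27 ± 0.16 (edgeR, adjusted p = 0.466). None of these 3 was separated between the WT groups. Eif3d, the eIF3 subunit that can itself bind the cap, went the other way by 0.42 ± 0.16 (edgeR, adjusted p = 0.210), with separate groups.

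**Figure D2:**
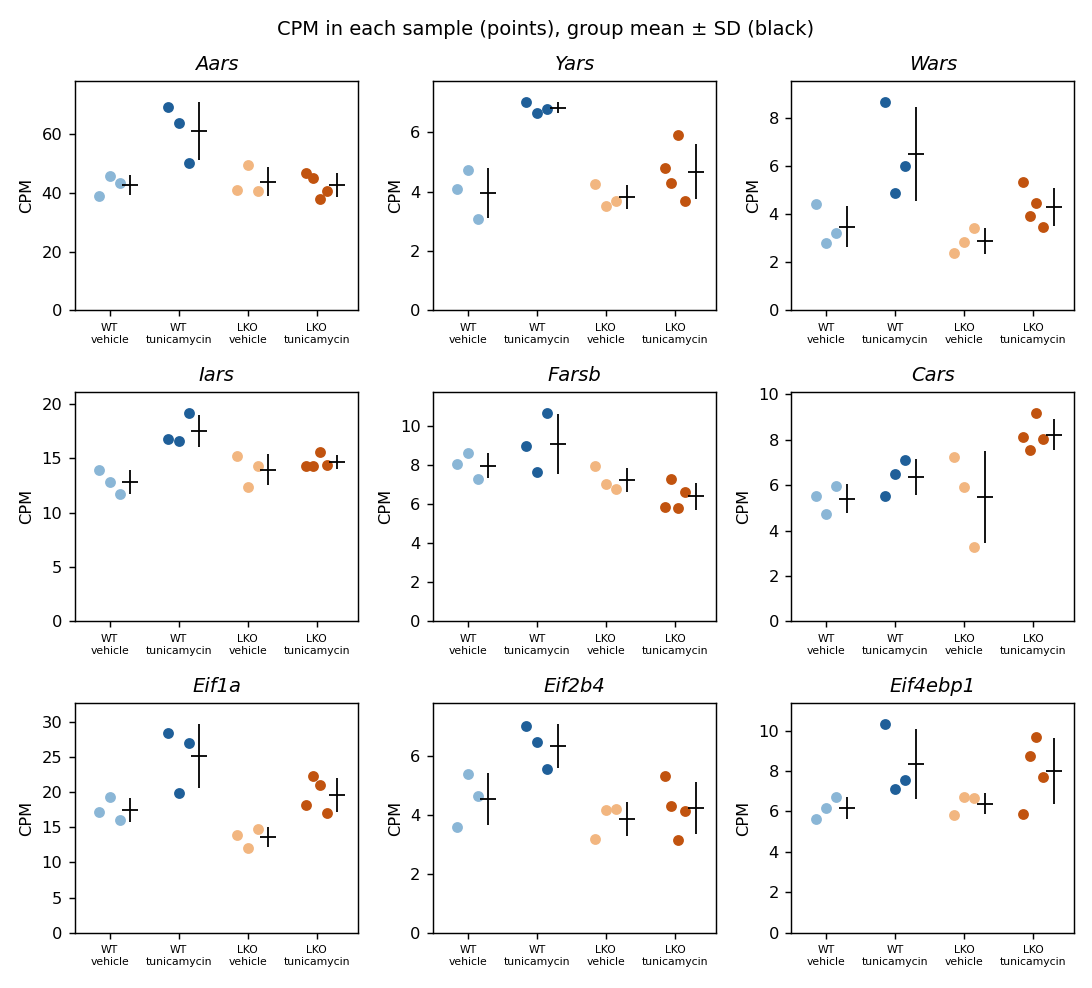
CPM in each sample (points) for 9 members by group, with the group mean and SD in black (n = 3, 3, 3 and 4) and axes that start at 0. For Aars and Iars the WT tunicamycin points lie above those of all other groups, and for Cars the LKO tunicamycin points do.

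The stress markers of the same libraries are given as context. Hspa5, the ER chaperone BiP, was at 197, 211 and 253 CPM in WT vehicle and at 854, 313 and 786 CPM in WT tunicamycin, a rise of 1.57 on the log2 scale (edgeR, adjusted p = 0.0388). Ddit3, which encodes CHOP, was at 26.3, 1.30 and 20.4 CPM in WT tunicamycin 1 to 3, and Trib3 at 9.22, 0.65 and 8.64 CPM. Sample 2 was thus low for both. Among members its Aars, Yars and Iars values lay within or close to those of samples 1 and 3, and its Wars, Eif1a and Rars values (4.86, 19.9 and 7.13 CPM) lay below them. Its median over the synthetases was also lower, 0.09 against 0.26 and 0.27 (log2 CPM minus the mean of WT vehicle). Atf4 mRNA was at 14.5, 14.2 and 13.7 CPM in WT vehicle and 20.9, 12.5 and 25.9 CPM in WT tunicamycin (log2 fold change 0.49, edgeR adjusted p = 0.326). Asns, the asparagine synthetase that ATF4 is known to induce, had an adjusted p of 0.772. Chac1, an ATF4 target that degrades glutathione, had at most 28 reads in any sample and a log2 fold change of 1.34 ± 0.43 (edgeR, adjusted p = 0.155).

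Related lists are set beside the members by their counts. Of 25 integrated stress response genes, 15 were tested and 2 were called higher (Ddit3 and Nupr1). By sign 13 of the 15 were higher, with a median log2 fold change of 0.55. Of 12 ER chaperones, 7 were called higher and 0 lower, and all 12 were higher by sign, with a median of 1.18. By contrast 0 genes were called in the other lists in either direction: 15 mitochondrial synthetases (median 0.15), 3 scaffold proteins of the cytosolic synthetase complex (0.11), 25 other initiation factors (-0.06), 10 elongation and termination factors (0.05), and 9 eIF2 kinases and phosphatase subunits (0.13). At an unadjusted p under 0.05 these 5 lists held 2, 0, 1, 0 and 1 genes.

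Scaling limits what can be said of the sets. With total count scaling, which moved the median of all genes to -0.18, medians were 0.03 for synthetases and -0.08 for factors, that is 0.21 and 0.10 above all genes. In the deposited FPKM, tested with limma on log2(FPKM + 1), 35 of the 49 members passed a mean of 1. Their medians were 0.13 and -0.08 against -0.10 for all genes, so only the synthetases kept a positive sign, and the factors lay 0.01 above all genes. Without that filter all 49 members gave 0.10 and -0.06 against -0.01. Stellate cell and fibroblast markers summed to 65.4 to 107 CPM in WT vehicle and 91.6 to 130 in WT tunicamycin. Kupffer cell and macrophage markers stood at 59.5 to 68.4 and 63.6 to 79.7 CPM in the same groups, bile duct cell markers at 8.60 to 11.7 and 8.49 to 42.5, neutrophil markers at 0.128 to 0.875 and 0.309 to 7.29, and dividing cell markers at 1.44 to 2.31 and 2.01 to 5.67. Their part in these values was not tested.

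In LKO liver the same treatment was compared, to show the response where Rbbp5 is deleted in hepatocytes. Synthetases were higher in 12 of 20 cases (median log2 fold change 0.07) and factors in 11 of 29 (median -0.07), against a median of 0.00 over all genes. The adjusted test passed 0 members and 0.0311% of all genes. At an unadjusted p under 0.05 there were 6 members, 4 higher and 2 lower, where 12.2% of all genes passed, 5.83% higher and 6.33% lower. Separate groups were found upward for Cars, Nars, Wars and Eif1a (4 members, against 5.03% of all genes) and downward for Eif4g2 (1 member, against 6.55%). With each sample left out in turn there were 4 to 7 higher and 1 to 6 lower, the most higher without LKO vehicle 1 (8.79% of all genes) and the most lower without LKO vehicle 2 (11.7% of all genes, against 12.2% of members). The synthetase median ran from 0.01 without LKO vehicle 3 to 0.13 without LKO vehicle 1, and the factor median from -0.09 without LKO vehicle 1 to -0.03 without LKO vehicle 3. Members at an unadjusted p under 0.05 numbered 2 without LKO vehicle 1, and 3 without LKO vehicle 3, LKO tunicamycin 1 or LKO tunicamycin 3.

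Cars stood apart from the other synthetases (chromosome 7, 143557230 to 143600090, mm10). Cars stood at 5.51, 4.74 and 5.98 CPM in the WT vehicle samples and 5.50, 6.49 and 7.10 in WT tunicamycin, with 7.23, 5.91 and 3.26 in LKO vehicle and 8.13, 7.55, 9.17 and 8.03 in LKO tunicamycin. All LKO tunicamycin values exceeded those of every other sample, and the difference from LKO vehicle was 0.64 ± 0.20 (edgeR, adjusted p = 0.247), with LKO vehicle 3 the lowest of all. Without that sample the value was 0.34. Wars differed by 0.53 ± 0.23 (edgeR, adjusted p = 0.366) and Eif1a by 0.52 ± 0.14 (edgeR, adjusted p = 0.215), about the size found for Eif1a in WT.

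On the lower side, Eif4b differed by -0.36 ± 0.15 (edgeR, adjusted p = 0.365) and Eif4a2 by -0.27 ± 0.12 (edgeR, adjusted p = 0.393), both with the same sign as in WT. Dars was at 22.5, 29.5 and 21.9 CPM in WT vehicle, 22.6, 20.6 and 25.2 in WT tunicamycin, 26.7, 19.3 and 21.1 in LKO vehicle and 14.8, 19.8, 20.4 and 19.7 in LKO tunicamycin. Dars, aspartyl-tRNA synthetase, differed by -0.25 ± 0.15 (edgeR, adjusted p = 0.538), and LKO tunicamycin 1 was the sample below the others. The integrated stress response and ER chaperone lists held 0 called genes here, with medians of 0.09 and 0.32, and 2 and 4 genes at an unadjusted p under 0.05. Kupffer cell and macrophage markers summed to 44.9 to 74.5 CPM in LKO vehicle and 68.1 to 134 in LKO tunicamycin, all 8 with a positive log2 fold change. Neutrophil markers summed to 0.474 to 2.19 and 2.53 to 6.51 CPM, and the part of either list was not tested.

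**Figure D3:**
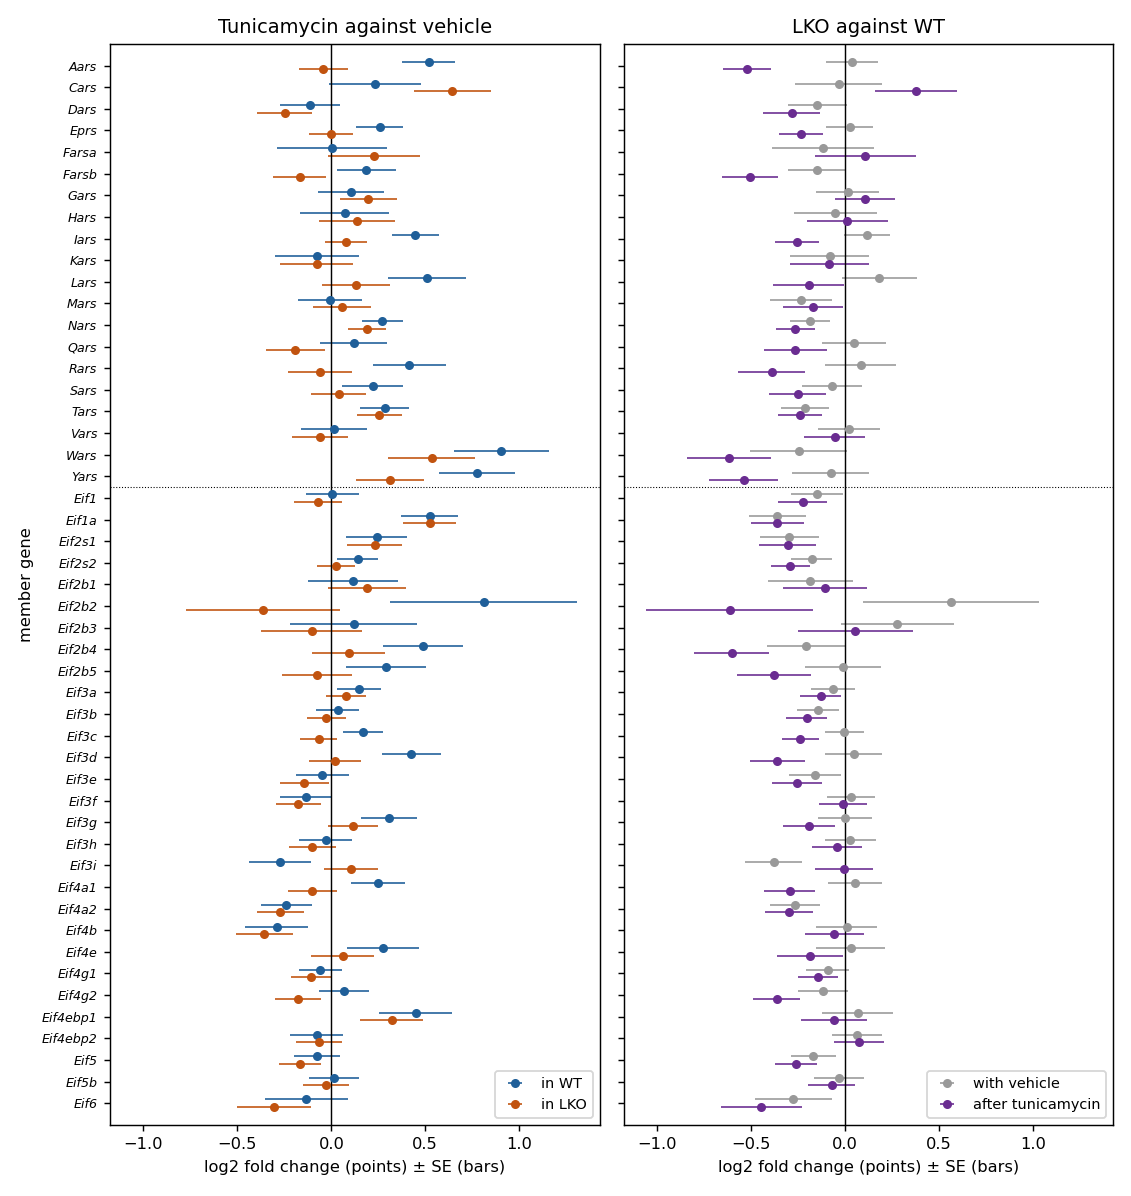
Log2 fold changes of each member (points) with standard errors (bars), in 2 panels: the tunicamycin effect in each genotype, and the genotype difference under each treatment. Contrasts within a panel share no samples, and in the second panel 43 of 49 points for tunicamycin lie below 0.

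With vehicle alone, LKO was compared with WT to show the state of these genes before stress. Differences were small: 8 of 20 synthetases and 10 of 29 factors were higher in LKO, and both medians were -0.06 against 0.00 for all genes. The synthetase median turned to 0.04, with 11 of 20 higher, without LKO vehicle 3, and was -0.16, with 3 of 20 higher, without LKO vehicle 1. It was -0.12 without WT vehicle 3, where the factor median was -0.13, and 0.03 in FPKM, against 0.02 for all genes. The FPKM of LKO vehicle 2 summed to 99386, against 156509 to 169701 in the other libraries. With LKO vehicle 2 left out, the synthetase median in FPKM was -0.02, against 0.02 for all genes. Under the adjusted test 0 members were called, against 0.0415% of all genes, and 2 members, both lower, had an unadjusted p under 0.05, where 8.15% of all genes did, 4.71% higher and 3.44% lower. In 48 of 49 members the 95% interval of the log2 fold change stayed within 1 of 0, the exception being Eif2b2. The same held for 80.2% of all genes. Groups were separate and lower in LKO for 7 members (Nars, Eif1a, Eif2s2, Eif3b, Eif3i, Eif4a2 and Eif5), where 7.58% of all genes were, and separate and higher for 0 members, against 7.52%. Without WT vehicle 1 there were 11 lower and 1 higher (12.1 and 12.6% of all genes), and without LKO vehicle 3 there were 10 lower and 5 higher (15.5 and 15.3% of all genes).

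The members with the smallest p were Eif3i, at -0.38 ± 0.15 (edgeR, adjusted p = 0.535), Eif1a, at -0.36 ± 0.15 (edgeR, adjusted p = 0.552), and Eif4a2, at -0.27 ± 0.13 (edgeR, adjusted p = 0.619). Upward, Eif2b2 led with 0.56 ± 0.47, on few reads, then Eif2b3 with 0.28 ± 0.30 and Iars with 0.12 ± 0.12. Of the related lists, 0 genes were called in any. The 7 stellate cell and fibroblast markers all had positive log2 fold changes here, and summed to 118 to 162 CPM in LKO vehicle. Bile duct cell markers summed there to 17.4 to 55.2 CPM and dividing cell markers to 4.15 to 10.3, and the part of these lists was not tested.

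After tunicamycin, LKO was compared with WT, which asks whether the stressed livers differed in this machinery. Of the 49 members, 43 were lower in LKO: 16 of 20 synthetases (median log2 fold change -0.25) and 27 of 29 factors (median -0.23), against a median of -0.01 over all genes, of which 48.0% were higher. Single fold changes ran from -0.62 to 0.38 among synthetases and from -0.61 to 0.08 among factors. The adjusted test passed 0 members and 0.861% of all genes. At an unadjusted p under 0.05 there were 16 members, 7 synthetases and 9 factors, all lower (10 without WT tunicamycin 3 or without LKO tunicamycin 2), where at that level 8.24% of all genes were lower, 7.55% higher and 15.8% either. Groups were separate and lower in LKO for 18 members against 6.58% of all genes, and separate and higher for 1, Cars, against 6.34%.

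The 18 were the synthetases Aars, Dars, Farsb, Iars, Mars, Nars, Tars and Yars and the factors Eif2s1, Eif2s2, Eif2b4, Eif2b5, Eif3c, Eif3d, Eif4a2, Eif4g1, Eif4g2 and Eif5. They span most roles: both eIF2 subunits, 2 eIF2B subunits, 2 eIF3 subunits, 3 genes of the eIF4 family and the GTPase activator. Leaving out each sample in turn gave 18 to 27 separate and lower members, against 8.60 to 13% of all genes, with the most without WT tunicamycin 2. Without WT tunicamycin 3 there were 20, against 12% of all genes, and edgeR then called Aars (-0.65, adjusted p = 0.0207) among 64 of 9941 genes.

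Aars showed the smallest p. Its LKO tunicamycin values of 37.9 to 46.8 CPM all lay below the WT tunicamycin values of 50.2 to 69.5, with 39.2 to 49.6 in the vehicle samples of both genotypes. The log2 fold change was -0.52 ± 0.13 (edgeR, unadjusted p = 0.00088, adjusted p = 0.0644). DESeq2 gave -0.53 with an adjusted p of 0.0218 and called no other member. In FPKM, Aars was at 6.96, 5.48 and 4.51 in WT tunicamycin and at 5.05, 4.70, 4.16 and 4.46 in LKO tunicamycin, so those groups overlapped.

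Farsb, the beta subunit of phenylalanyl-tRNA synthetase, followed (chromosome 1, 78417958 to 78488897, mm10). For Farsb the samples gave 8.02, 8.59 and 7.29 CPM with vehicle and 8.94, 7.62 and 10.7 after tunicamycin in WT, and 7.94, 7.01 and 6.76 and then 5.86, 7.29, 5.81 and 6.62 in LKO. Its tunicamycin groups were separate, by -0.51 ± 0.15 (edgeR, adjusted p = 0.117). Farsa stood at 2.39, 2.69 and 1.75 CPM in the WT vehicle samples and 2.61, 1.46 and 2.78 in WT tunicamycin, with 2.49, 2.41 and 1.60 in LKO vehicle and 2.53, 2.34, 2.75 and 2.28 in LKO tunicamycin. The partner subunit Farsa differed by 0.11 ± 0.27, with overlapping groups. Wars had the lowest fold change of the synthetases, -0.62 ± 0.22, but LKO tunicamycin 1 overlapped the WT values. Mars, methionyl-tRNA synthetase, overlaps Ddit3 by 68 bases in the loci of the deposited table, so its value is uncertain there.

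Among the factors, Eif2b4 had the smallest p, at -0.60 ± 0.20 (edgeR, adjusted p = 0.164), with LKO tunicamycin at 3.16 to 5.33 CPM and WT tunicamycin at 5.56 to 7.02. Eif2s1 differed by -0.31 ± 0.15, Eif2s2 by -0.29 ± 0.10 and Eif2b5 by -0.38 ± 0.20, all 3 with separate groups. Eif3d was at 9.10, 9.48 and 6.41 CPM in WT vehicle, 11.01, 10.9 and 11.9 in WT tunicamycin, 7.82, 9.64 and 8.37 in LKO vehicle and 8.26, 8.33, 9.78 and 8.58 in LKO tunicamycin. For Eif3d the difference was -0.36 ± 0.14.

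Members higher in LKO after tunicamycin were few. Cars led with 0.38 ± 0.22 (edgeR, adjusted p = 0.421). For Gars the samples gave 8.38, 8.33 and 9.04 CPM with vehicle and 10.04, 7.62 and 9.88 after tunicamycin in WT, and 9.83, 10.00 and 6.47 and then 9.59, 9.50, 10.3 and 10.2 in LKO. Gars, glycyl-tRNA synthetase, had 0.11 ± 0.16 and overlapping groups. Eif4ebp2 stood at 19.3, 17.8 and 20.6 CPM in the WT vehicle samples and 15.3, 22.5 and 17.0 in WT tunicamycin, with 20.5, 18.5 and 21.2 in LKO vehicle and 19.6, 19.9, 17.3 and 19.98 in LKO tunicamycin. Eif4ebp2, a relative of 4E-BP1, had 0.08 ± 0.13, also with overlap. Eif4ebp1 itself differed by -0.06 ± 0.18.

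**Figure D4:**
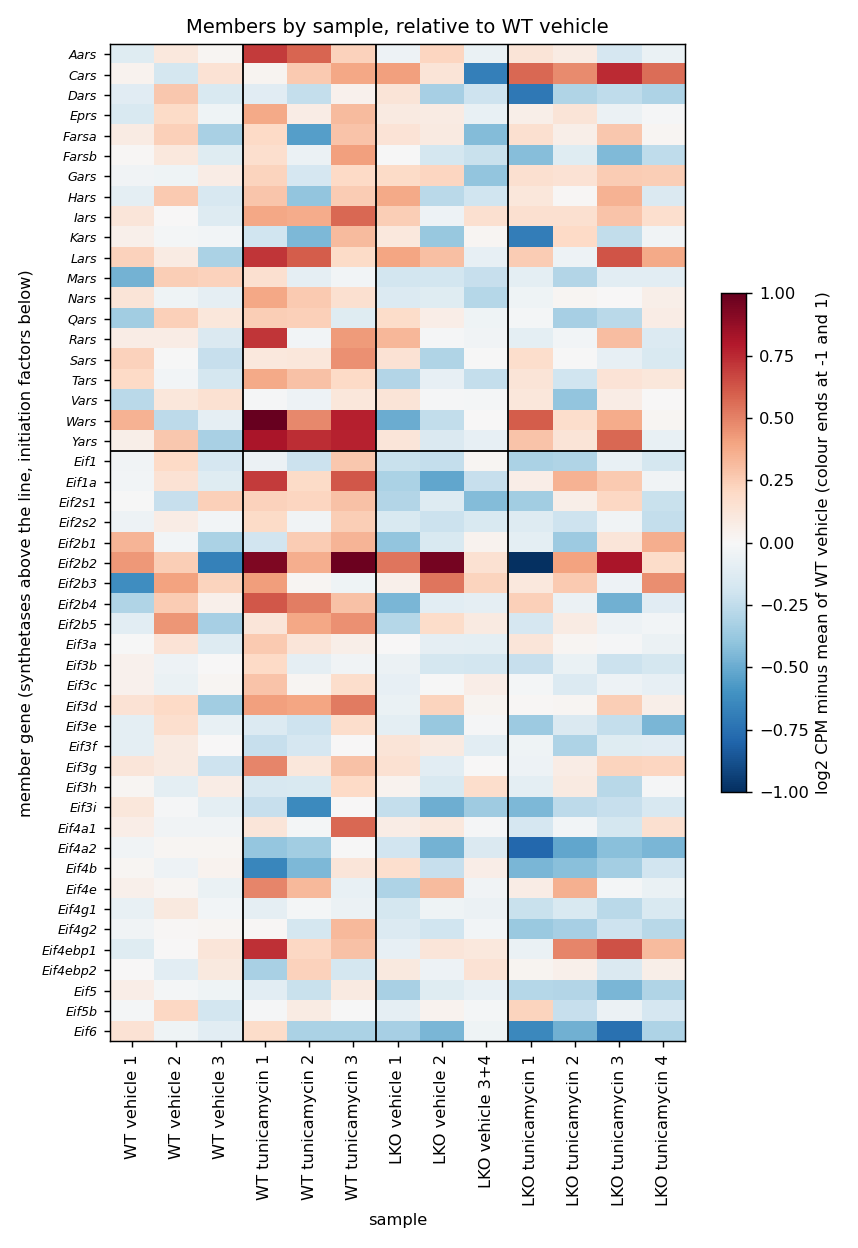
Log2 CPM of each member (rows, synthetases above the line) in each of 13 samples (columns), minus the mean of WT vehicle, with red for higher and blue for lower and colours ending at -1 and 1. WT tunicamycin columns hold most of the red cells among synthetases, and Eif2b2, with few reads, varies most.

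Per-sample medians show the same spread. Each sample's median over the synthetases, as log2 CPM minus the mean of WT vehicle, was 0.26, 0.09 and 0.27 in WT tunicamycin, 0.12, 0.02, 0.10 and -0.01 in LKO tunicamycin, 0.13, -0.07 and -0.08 in LKO vehicle, and 0.04, 0.09 and -0.11 in WT vehicle. WT tunicamycin 1 and 3 were above all others, and sample 2 lay inside the range of the rest. For the factors, LKO tunicamycin was at -0.13, -0.06, -0.08 and -0.11, and WT tunicamycin at 0.12, 0.02 and 0.18. All 4 LKO tunicamycin samples were below all WT samples for the factors, and the LKO vehicle samples, at -0.10, -0.11 and -0.02, overlapped them.

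**Figure D5:**
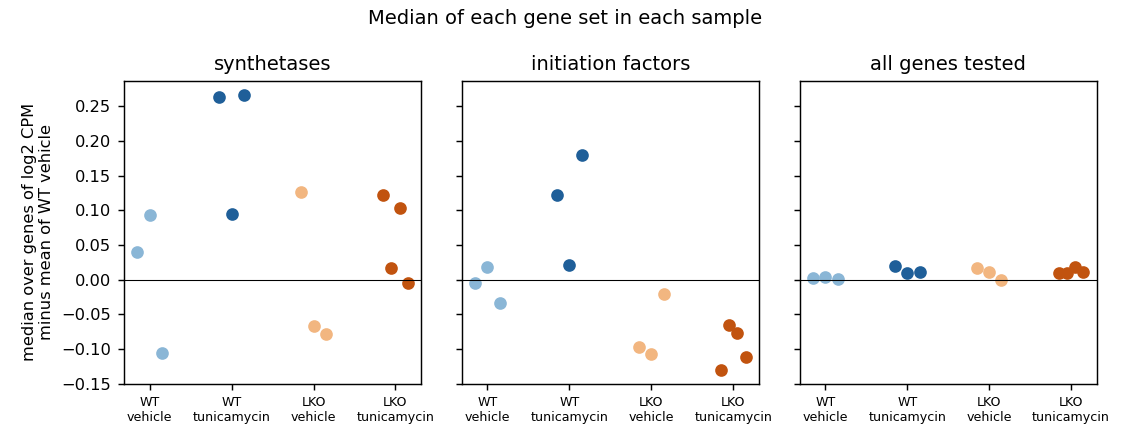
Median over synthetases, over initiation factors and over all genes tested of log2 CPM minus the WT vehicle mean, 1 point per sample, by group. For factors the 4 LKO tunicamycin points, from -0.13 to -0.06, lie below the 3 WT tunicamycin points, from 0.02 to 0.18.

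Scaling and the measure of level bear on the size of these set differences. Total count scaling moved the median of all genes to 0.14 and the medians of the sets to -0.10 and -0.08, which are 0.24 and 0.22 below all genes. In the deposited FPKM, of 35 members that passed a mean of 1, the synthetase median was 0.00 and the factor median 0.03, against 0.07 for all genes, and 0 members had an unadjusted p under 0.05 in limma. Counts that ignore strand gave medians of -0.24 for both sets, with 43 of 49 members lower. Both kinds of count hold nearly the same reads, since 99.5 to 99.6% of stranded reads lay on the gene's strand. The lower level in LKO after tunicamycin was thus seen in the counts, with TMM and with total count scaling. In FPKM the medians were near 0 and lay 0.07 (synthetases) and 0.04 (factors) below all genes. The cause of this difference between counts and FPKM was not tested.

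Related lists were counted in the same contrast. Of the ER chaperones 8 of 12 were called lower in LKO after tunicamycin and 0 higher, and all 12 were lower by sign, with a median of -1.08. Hspa5, at 229, 142, 181 and 207 CPM in LKO tunicamycin, was lower than in WT tunicamycin by a log2 fold change of -1.78 (edgeR, adjusted p = 0.0102). Of 15 tested integrated stress response genes 3 were called lower (Ddit3, Trib3 and Nupr1) and 13 were lower by sign, with a median of -0.40. Medians were -0.20 for mitochondrial synthetases, -0.39 for scaffold proteins, -0.09 for other initiation factors, -0.06 for elongation and termination factors and -0.04 for eIF2 kinases and phosphatase subunits, with 0 genes called and 1, 0, 2, 2 and 3 at an unadjusted p under 0.05. Hnf4a, a hepatocyte marker, was lower by -0.54 ± 0.12 (edgeR, adjusted p = 0.0405). Kupffer cell and macrophage markers summed to 63.6 to 79.7 CPM in WT tunicamycin and 68.1 to 134 in LKO tunicamycin, and stellate cell and fibroblast markers to 91.6 to 130 and 108 to 176. Endothelium markers stood at 67.2 to 69.7 and 60.7 to 77.8 CPM, bile duct cell markers at 8.49 to 42.5 and 35.8 to 111, neutrophil markers at 0.309 to 7.29 and 2.53 to 6.51, and dividing cell markers at 2.01 to 5.67 and 2.80 to 10.4. Their part in the members' values was not tested.

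The difference between the tunicamycin effects in LKO and in WT was tested directly as an interaction. It was negative for 15 of 20 synthetases (median -0.16) and 26 of 29 factors (median -0.09), against a median of -0.02 over all genes. With single samples left out, the synthetase median ran from -0.23 (without LKO vehicle 2) to -0.06 (without LKO vehicle 1) and the factor median from -0.16 (without WT tunicamycin 2) to -0.06 (without WT tunicamycin 3). The adjusted test passed 0 members and 0% of all genes. At an unadjusted p under 0.05 were 2 members, Aars and Iars, both negative, where 4.91% of all genes were, 2.13% positive and 2.79% negative. Leaving out WT tunicamycin 2 gave 5 such members and leaving out LKO tunicamycin 3 gave 6, while leaving out WT vehicle 3 or LKO tunicamycin 1, 2 or 4 gave 1. Aars had -0.56 ± 0.19 (edgeR, unadjusted p = 0.0091, adjusted p = 0.935) and Iars -0.37 ± 0.17 (edgeR, adjusted p = 0.963). Next on the negative side was Eif3d with -0.41 ± 0.21, and on the positive side Cars with 0.41 ± 0.32, Eif3i with 0.38 ± 0.22 and Farsa with 0.22 ± 0.38. With an adjusted p of 0.935 at the smallest, a difference in the response of any member between genotypes was not shown. For 41 of 49 members the 95% interval stayed within 1 of 0 on the log2 scale, as for 60.2% of all genes. The highest fold change of a member in WT was 0.90, so a full loss of response would also lie within that margin. Total count scaling moved the synthetase median to -0.02 and the factor median to 0.05, while the median of all genes moved to 0.13. By sign 27 of 49 members were then positive. In FPKM 21 of the 35 members that passed the filter were positive. The medians there were -0.05 for synthetases and 0.05 for factors, against 0.05 for all genes.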

How the data were processed

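The authors deposited whole read counts for each gene in STAR's format (per the file headers), in 3 columns for each of 14 libraries, and a table of FPKM for the same libraries. Trimmomatic, STAR, Cufflinks and build mm10 are named in the submitters' processing notes, and their versions are not given in the sources used here. Reads on the gene's strand were used here (99.5 to 99.6% of stranded reads), and 0 per-sample columns were left unused. Reads without molecular identifiers are not independent molecules, so counting error understates the uncertainty of 1 library. After alignment, 40.9 to 44.8% of uniquely mapped reads fell on no gene or on several.

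Counts of 13 samples were fitted with edgeR 4.0.16 in R 4.3.3: TMM scaling, the filterByExpr filter, 1 mean per group, 9 residual degrees of freedom and the quasi-likelihood test, with a common biological coefficient of variation of 0.155. Summing LKO vehicle libraries 3 and 4 departs from the 14 labelled libraries, and the fit of all 14 is an alternative. CPM were scaled by TMM library sizes, with a prior count of 2 on the log2 scale. FPKM were tested with limma 3.58.1 after a filter at a mean of 1, on a log2 scale with a pseudocount of 1, where fold changes of low genes are understated. DESeq2 1.42.0, other scalings, no filter, the replicate number as a block and leaving out each sample were alternatives. RefSeq promoters were matched by symbol, with or without a final 1, and 1 promoter window is not reported here.

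The members, related lists and motifs were chosen with earlier results of these data known. All members may be named. Values in every sample are given for the 3 members with the smallest unadjusted p per direction and contrast, members called, Eif4ebp1, and the eIF2 and eIF2B subunits. Other genes named are Rbbp5, stress markers and up to 3 called genes per related list.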

Additional observations from a re-analysis of the deposited data

Results flagged for a closer look

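In groups of 4 samples, a value was picked out where its gap to the nearest of the others, divided by the range of the group, passed Dixon's 95% critical value. Only LKO tunicamycin has 4 samples, and 6 of 49 members were picked out there. The nominal rate of the rule is about 1 in 20. It was run on the members alone, which share the same 4 samples, so an excess over other genes was not tested. Dars, aspartyl-tRNA synthetase, was at 14.8 CPM in LKO tunicamycin 1 and at 19.7 to 20.4 in the other 3 samples. Iars, isoleucyl-tRNA synthetase, was at 15.6 CPM in sample 3, and the others were all at 14.3. Mars, methionyl-tRNA synthetase, was at 8.59 CPM in sample 2, against 9.77 to 9.86. Tars, threonyl-tRNA synthetase, was at 25.0 CPM in sample 2, against 30.9 to 31.5. Eif4ebp2, which binds eIF4E, was at 17.3 CPM in sample 3, against 19.59 to 19.98. Eif5, the GTPase activator of eIF2, was at 72.8 CPM in sample 3, against 81.3 to 82.3. Samples 2 and 3 account for 5 of the 6, all but Iars as the lowest value.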

How the results depend on the processing

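With no filter on low counts, 1 member was called for tunicamycin in WT (Wars, 0.88, adjusted p = 0.0430) and 1 for LKO against WT after tunicamycin (Aars, -0.52, adjusted p = 0.0363). Those fits called 289 and 261 of 16251 genes. DESeq2 also called 1 in each (Aars in both), among 153 and 130 of 16249 genes. It gave an adjusted p for 39 of 49 members in the former contrast and for 16 of 49 in tunicamycin in LKO. Leaving out each sample gave 0 to 2 called members for tunicamycin in WT, 0 to 1 for LKO against WT after tunicamycin, and 0 in the other contrasts. Directions turned for Eif2b3 in LKO against WT with vehicle (-0.033 without WT vehicle 1, up to 0.518 with other samples left out), and in LKO against WT after tunicamycin for Eif4ebp2 (-0.045 without WT tunicamycin 1, up to 0.254) and Gars (-0.0047 without WT tunicamycin 2, up to 0.174). The cause was not tested. Same-numbered samples of different groups did not deviate together more than others (correlations of -0.118 to 0.117, against -0.179 to 0.202 for other pairs). With so few samples in a group, this cannot exclude that the numbers pair samples. With the replicate block, 0 members were called in every contrast, and 38, 5, 0, 32 and 0 genes in all, against 35, 3, 4, 83 and 0. RLE scaling, the unstranded counts, the 14 libraries and fits of 2 groups alone gave 0 called members. At 2 to 25 reads per sample, differences in Eif2b2 below its wide interval were not detectable.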
